A study of Mus musculus with 39 samples.

Results

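The proteasome genes of mouse lymph node cells were followed through immunization: the constitutive core, its regulatory cap, its activators and the factors that assemble them. Members were chosen by name alone, as all gene symbols that start with Psma, Psmb, Psmc, Psmd, Psme, Psmf or Psmg and a number, without the interferon-inducible core subunits Psmb8, Psmb9 and Psmb10. The rule found 47 genes among 24421 in each of 2 dendritic cell (DC) count tables, 47 among 24411 in the other DC table and 45 among 7830 in the T cell table. They comprise 16 core genes (Psma and Psmb), 20 cap genes (Psmc and Psmd, of which 3 encode cap chaperones), 5 activator genes (Psme), 5 regulators (the inhibitor Psmf1 and the core chaperones Psmg1 to Psmg4) and Psmc3ip. Psmc3ip encodes a factor of meiotic recombination and matches the rule through its symbol only.

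All 39 libraries came from popliteal and inguinal lymph nodes of C57BL/6 mice aged 8 to 12 weeks, immunized by injection under the skin of the hock unless stated. The time course held 2 libraries each of wild-type DC from non-immunized mice, from mice given nanoparticles with the adjuvant CpG alone and from mice given particles with CpG and the antigen ovalbumin (OVA), the last 2 at 12 h and at 24 h. For costimulation, all at 12 h, there were 2 libraries per group: wild-type DC after OVA without transferred OT cells, after OVA with OT cells, after bovine serum albumin (BSA) with OT cells, and DC of genotype Cd80/86 -/- after OVA with OT cells. OT cells are T cells of transgenic mice whose receptor recognizes an OVA peptide; those mice here were OT-I and OT-II. A further DC experiment at 20 h held 5 wild-type libraries each of non-immunized mice, of mice given OVA and CpG particles and of mice given BSA and CpG particles, and CD4+ OT-II T cells at 20 h gave 3 libraries after OVA and 3 after BSA, each with CpG. The study's design text states that OT-I and OT-II cells had been engrafted before immunization, while the sample labels of the time course and of the DC experiment at 20 h do not say which mice did. No label says whether replicates are separate mice or pools, so a p-value here measures the spread between libraries, which may be technical.

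The proteasome is a barrel-shaped protease whose outer rings are built from alpha subunits and whose inner rings are built from beta subunits, Psmb5, Psmb6 and Psmb7 carrying the catalytic sites of the constitutive form. The cap, a ring of ATPases with a set of non-ATPase subunits, binds ubiquitin-tagged proteins, removes the tag, unfolds them and feeds them into the barrel, whereas Psme1 and Psme2 form another end ring that opens the barrel without ATP and is induced by interferon. In antigen-presenting cells interferon also exchanges the catalytic subunits for Psmb8, Psmb9 and Psmb10, and the peptides that result are loaded onto MHC class I.

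Promoter sequence is shown for 3 members, Psme1 and Psmg4, which rose in all 4 comparisons of immunized with non-immunized DC in the time course, and Psme3, which rose in T cells. Psma5 and Psme2b also rose in all 4 and are not shown. Windows come from RefSeq on build GRCm38.p6, which is not the build of the count tables, and each is printed 5′ to 3′ from 250 bases before the start of the gene to 30 after it. Psme1 is at chr14:55578244-55578523, Psmg4 at chr13:34162714-34162993 and Psme3 at chr11:101315963-101316242, all on the plus strand. Capitals mark matches on either strand to the box CCAAT, to a pair of GAAA with any 2 bases between, to the E-box CACGTG and to the core CCGGAAG.
Psme1: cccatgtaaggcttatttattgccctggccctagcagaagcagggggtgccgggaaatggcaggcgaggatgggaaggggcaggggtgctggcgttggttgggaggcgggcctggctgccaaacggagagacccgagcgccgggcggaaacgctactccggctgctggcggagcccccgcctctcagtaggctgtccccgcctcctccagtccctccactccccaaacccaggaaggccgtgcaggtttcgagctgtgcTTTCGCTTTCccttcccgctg
Psmg4: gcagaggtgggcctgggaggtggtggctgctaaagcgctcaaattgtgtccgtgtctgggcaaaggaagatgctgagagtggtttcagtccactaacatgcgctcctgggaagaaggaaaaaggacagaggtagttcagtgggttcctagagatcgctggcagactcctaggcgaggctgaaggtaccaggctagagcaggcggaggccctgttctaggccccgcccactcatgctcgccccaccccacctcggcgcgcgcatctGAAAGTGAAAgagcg
Psme3: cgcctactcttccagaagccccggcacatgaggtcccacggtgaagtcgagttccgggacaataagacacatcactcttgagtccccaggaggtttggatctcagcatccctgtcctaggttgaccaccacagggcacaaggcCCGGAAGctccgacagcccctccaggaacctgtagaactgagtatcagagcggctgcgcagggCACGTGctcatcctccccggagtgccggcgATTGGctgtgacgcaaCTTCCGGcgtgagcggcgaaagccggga

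The pair of GAAA with any 2 bases between, a core of the element bound by interferon regulatory factors, matched after the start in both Psme1 and Psmg4. A window ran from 250 bases before to 50 after the start, and 39 of the 47 members had at least 1. It was found in 5 of these members (Psmb3, Psmd4, Psmd9, Psme1 and Psmg4), or 12.8%, against 3.99% of all 27025 symbols with a window. Of these, Psmb3, Psmd4 and Psmd9 rose in none of the time course comparisons with non-immunized DC. Psma5 and Psme2b rose in each of those comparisons and were not among the 5, for lack of a match or of a window. CCGGAAG, a core bound by ETS factors, was found in 15 members, or 38.5%, against 9.93% of all symbols, and GGTGGC in 14, or 35.9%, against 24%. The other letters searched were found in shares of the members near those of all symbols or in few members: CCAAT in 14 (35.9% against 41.1%), CACGTG in 3 (7.69% against 8.09%), TTCNNNGAA in 2 (5.13% against 9.55%), TGACNNNGC in 6 (15.4% against 14%), TGAC in 35 (89.7% against 87%) and TGAG in 35 (89.7% against 94.5%), with TGAC contained in TGACNNNGC and in TGACTCAGC. TGACTCAGC and TGAGTCAGC were in none of the members' windows and in 0.503% and 0.481% of all symbols. A match describes the letters of a window and not a site in use.

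Total counts per library ranged from 612017 to 1329203 in the time course, 628404 to 1621784 in the costimulation experiment and 367209 to 2052904 in the DC experiment at 20 h, and the reads recovered from the T cell table ranged from 155088 to 1316341. Levels are given as CPM, counts scaled to a DC library total of 1000000, or as the authors' normalized counts for T cells, and they are compared between libraries and not between genes, since no length was applied. A gene is said to rise or fall where the adjusted p over all genes tested was under 0.05, by edgeR for DC and by limma for T cells. Log2 fold changes of DC are scaled by TMM, which sets the bulk of genes to no change. With library totals in place of TMM, a setting added after seeing the data, the median of all genes fell by 0.24 and 0.20 (CpG at 12 h and 24 h), 0.26 and 0.24 (OVA at 12 h and 24 h), 0.15 (BSA at 20 h) and 0.17 (OVA at 20 h) on the log2 scale in comparisons with non-immunized DC, so the changes below are relative to the bulk of genes. The DC libraries held all 5 DC markers looked for (Itgax, Flt3, Zbtb46, H2-Ab1 and Cd74) but also transcripts of other cells. Sums of the DC markers and of some of the other sets are given beside the results.

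Of the members, 44 passed the filter on low counts in the time course and in the costimulation experiment, 45 in the DC experiment at 20 h and 45 in T cells. Psma8, the alpha subunit of the testis, had 3 counts in 1 time course library, 3 counts in 3 costimulation libraries and 9 counts in 6 of the 15 libraries at 20 h. Psmb11, the catalytic subunit of thymic epithelium, had 0 counts in the time course and at 20 h, which allows up to 0.319 and 0.152 CPM over all libraries of those experiments (3 counts, counting error only), and 2 counts in the costimulation experiment. Psmc3ip had 86, 42 and 143 counts in the 3 DC experiments and passed the filter in the last. Psme2 and its retrocopy Psme2b have transcripts that were identical at 711 of 716 aligned bases (99.3%), so the division of reads between these genes is uncertain. Their levels and fold changes are printed as assigned, with only the direction to be relied on, and both count as members.

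Immunization with CpG particles or with OVA and CpG particles was followed by higher transcript levels of the activators Psme1 and Psme2b, of the core subunit Psma5 and of the core chaperone Psmg4 at 12 h and at 24 h, against non-immunized DC. At 12 h 4 of 14 tested core genes rose after CpG and 6 of 14 after OVA and CpG, where 11.6% and 9.56% of all genes tested rose, and at 24 h 1 and 2 of 14 rose. With 1 library left out the core counts at 12 h were 1 to 2 and 2 to 4, by DESeq2 2 and 5, and with library totals 1 and 3. Of the 20 cap genes 2 rose and 1 fell 12 h after CpG, and 1 rose 12 h after OVA and CpG. At 24 h 0 and 1 of the 20 rose. Of all genes tested 7.96% and 10.2% rose at 24 h, after CpG and after OVA and CpG. The 4 comparisons share the same 2 non-immunized libraries and so are not independent of each other.

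In numbers, 9 members rose and 1 fell at 12 h after CpG, where 11.6% of all genes tested rose and 4.64% fell. At 24 h after CpG 4 rose and 0 fell, beside 7.96% and 3.05% of all genes. After OVA and CpG 11 rose and 0 fell at 12 h (9.56% and 4.06% of all genes), and 7 rose and 0 fell at 24 h (10.2% and 3.92%). The members' median log2 fold change was 0.39 (CpG, 12 h), 0.17 (CpG, 24 h), 0.52 (OVA, 12 h) and 0.21 (OVA, 24 h), beside -0.02, 0.00, -0.03 and -0.03 over all genes tested. With library totals the members' medians were 0.17, -0.03, 0.29 and -0.00, and without CpG 24 h replicate 2 the median for CpG at 24 h was 0.07. By DESeq2 the counts of called members were 5, 4, 7 and 4, beside 1015, 704, 795 and 887 called among all genes. With library totals in place of TMM the members rising and falling were 4 and 2 (CpG, 12 h), 3 and 2 (CpG, 24 h), 5 and 1 (OVA, 12 h) and 4 and 0 (OVA, 24 h), Psmg2 being among those that fell in the first 3. The shares of all genes called with library totals are not given, here or at 20 h, so these counts stand without a background.

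**Figure D1:**
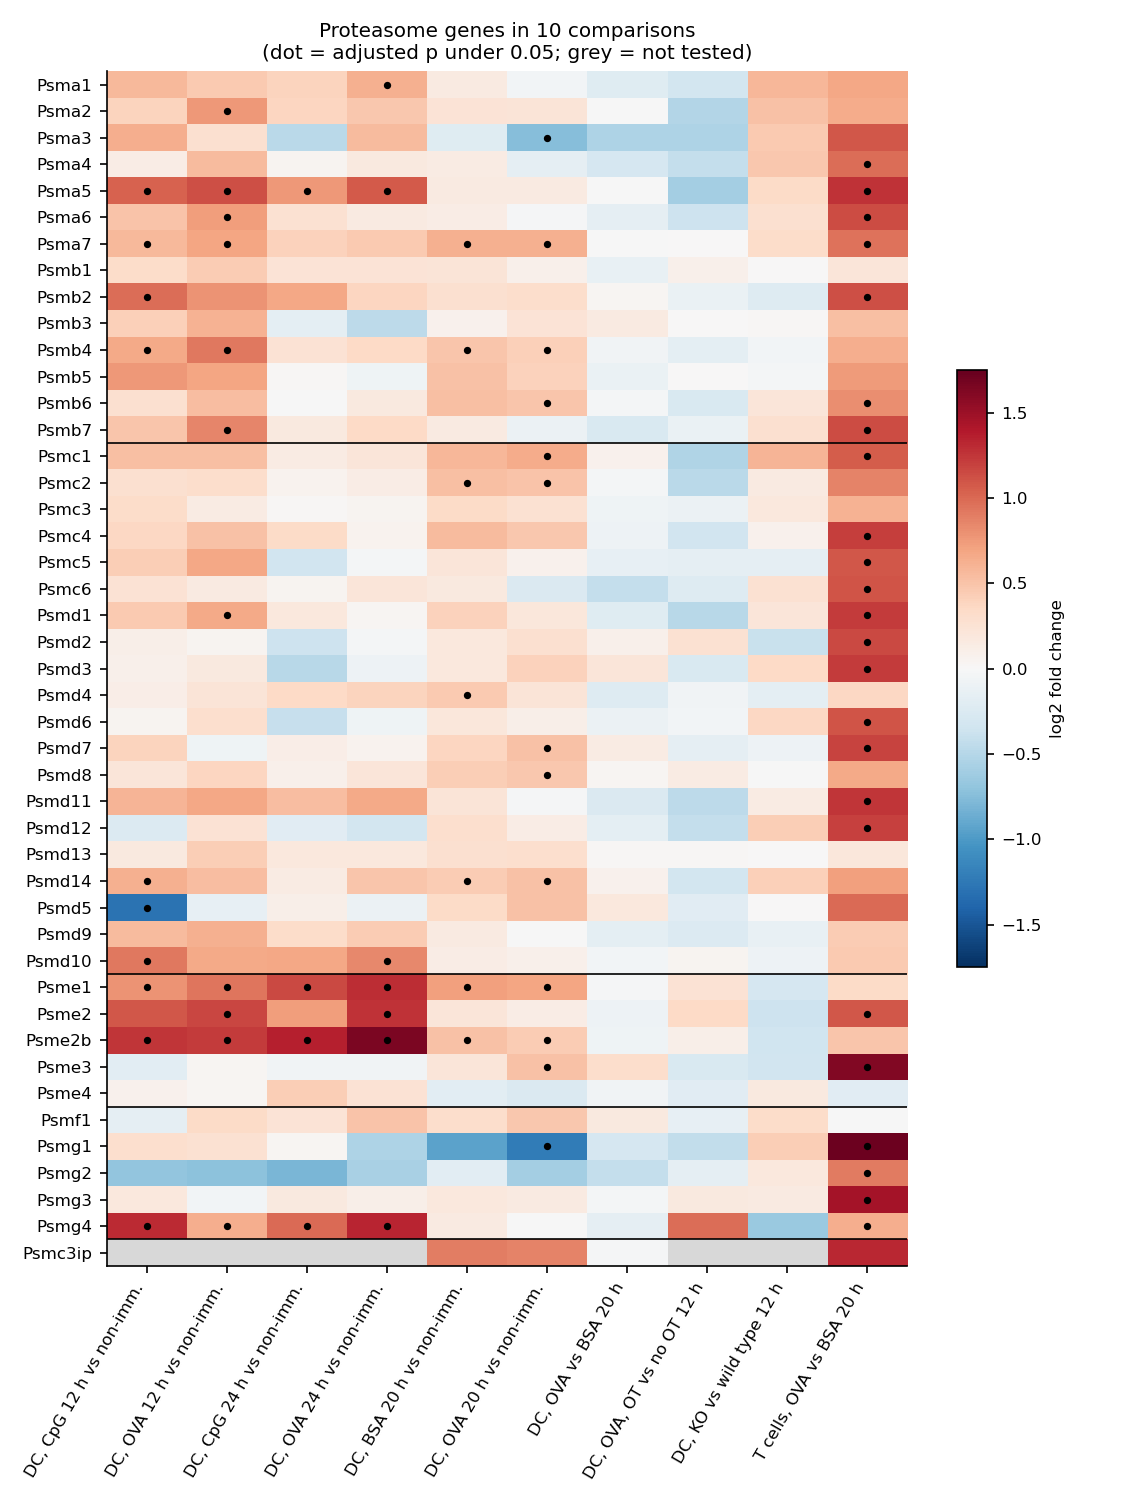
Each row is a proteasome gene, ordered as core, cap, activators, regulators and Psmc3ip with lines between, and each column a comparison; colour gives the log2 fold change, dots mark an adjusted p under 0.05 and grey cells were not tested. Red is most common in the T cell column, where 24 of 45 members rose, and in the DC columns the rows of Psme1 and Psme2b carry dots in each of the 6 comparisons with non-immunized mice.

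The activators differed among themselves. Psme1, the alpha subunit of the interferon-induced end ring, stood at 1095 and 961 CPM in non-immunized DC, at 1598 and 1464 CPM 12 h after CpG, at 1748 and 1616 CPM 12 h after OVA and CpG, at 1953 and 2036 CPM 24 h after CpG, and at 2241 and 2099 CPM 24 h after OVA and CpG. All 8 immunized libraries were above both non-immunized ones, and the 4 at 24 h were above the 4 at 12 h. Its log2 fold change against non-immunized DC was 0.79 (SE 0.17, adjusted p = 0.00424) and 1.16 (SE 0.17, adjusted p = 0.000252) after CpG and 0.94 (SE 0.17, adjusted p = 0.00141) and 1.30 (SE 0.17, adjusted p = 6.05e-05) after OVA and CpG, at 12 h and 24 h, by edgeR's quasi-likelihood test with Benjamini-Hochberg adjustment. The difference between 24 h and 12 h did not pass for Psme1 under either particle.

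Psme2b stood at 778 and 730 CPM in non-immunized DC and between 1498 and 2313 CPM in the 8 immunized libraries, with no overlap. Its log2 fold change was 1.25 (SE 0.20) and 1.35 (SE 0.20) after CpG and 1.22 (SE 0.20) and 1.65 (SE 0.20) after OVA and CpG, at 12 h and 24 h. Reads assigned to Psme2 itself were few, at 29.4 and 25.1 CPM in non-immunized DC and between 33.1 and 74.2 CPM after immunization, and Psme2 rose 12 h and 24 h after OVA and CpG (log2 fold changes 1.17 and 1.26, SE 0.37 and 0.38), calls that held in 0 and 1 of 4 fits with 1 library left out. The nuclear activator Psme3 and the large activator Psme4 did not pass in any of the 4 comparisons, with log2 fold changes from -0.19 to 0.04 for Psme3 and from 0.03 to 0.43 for Psme4.

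Among core genes Psma5, an alpha subunit, stood at 119.9 and 110.4 CPM in non-immunized DC. It stood at 202 and 206 CPM 12 h after CpG, at 237 and 189 CPM 12 h after OVA and CpG, at 155 and 181 CPM 24 h after CpG and at 197 and 222 CPM 24 h after OVA and CpG. All immunized libraries were above the non-immunized ones, and the log2 fold change was 1.04, 0.76, 1.12 and 1.08 (CpG 12 h, CpG 24 h, OVA 12 h, OVA 24 h; SE 0.19 each, adjusted p 0.0012, 0.0158, 0.000651 and 0.000848). The call 24 h after CpG was lost with library totals and without non-immunized replicate 1 or 2 or CpG 24 h replicate 2, while the other 3 held with any 1 library left out. At 12 h Psma7 and Psmb4 also rose under both particles, with log2 fold changes of 0.57 and 0.66 after CpG and 0.69 and 0.93 after OVA and CpG. Psmb2 rose 12 h after CpG (0.98), and Psma2 (0.77), Psma6 (0.73) and Psmb7 (0.86) rose 12 h after OVA and CpG. Psma1 rose 24 h after OVA and CpG (0.62). Among these Psmb4 after OVA and CpG was called with any 1 library left out, and the others in 0 to 2 of 4 such fits.

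Of the 3 catalytic subunits Psmb7, which has the trypsin-like activity, passed 12 h after OVA and CpG: it stood at 137 and 108 CPM in non-immunized DC and at 176 and 206 CPM there, without overlap. Psmb5, the chymotrypsin-like subunit, had log2 fold changes of 0.76 (adjusted p = 0.0564) and 0.70 (adjusted p = 0.0829) at 12 h and of 0.02 and -0.08 at 24 h by edgeR. Psmb6, the caspase-like subunit, had 0.28 and 0.53 (adjusted p = 0.0561) at 12 h and -0.00 and 0.17 at 24 h by edgeR, so these did not pass. The 14 tested core genes all had a log2 fold change above 0 at 12 h under both particles, with medians of 0.53 after CpG and 0.69 after OVA and CpG. With library totals 13 of 14 and 14 of 14 were above 0.

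Summed over the core, levels were 2630 and 2466 CPM in non-immunized DC, 3144 and 3049 CPM 12 h after CpG and 3578 and 3295 CPM 12 h after OVA and CpG. At 24 h they were 2691 and 2664 CPM after CpG and 2819 and 2780 CPM after OVA and CpG, above the non-immunized and below the 12 h libraries. The cap summed to 2211 and 2174 CPM in non-immunized DC and to between 1913 and 2375 CPM in the immunized libraries, which overlap. The activators summed to 2079 and 1905 CPM in non-immunized DC and to between 3156 and 4797 CPM in the immunized ones, which do not.

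**Figure D2:**
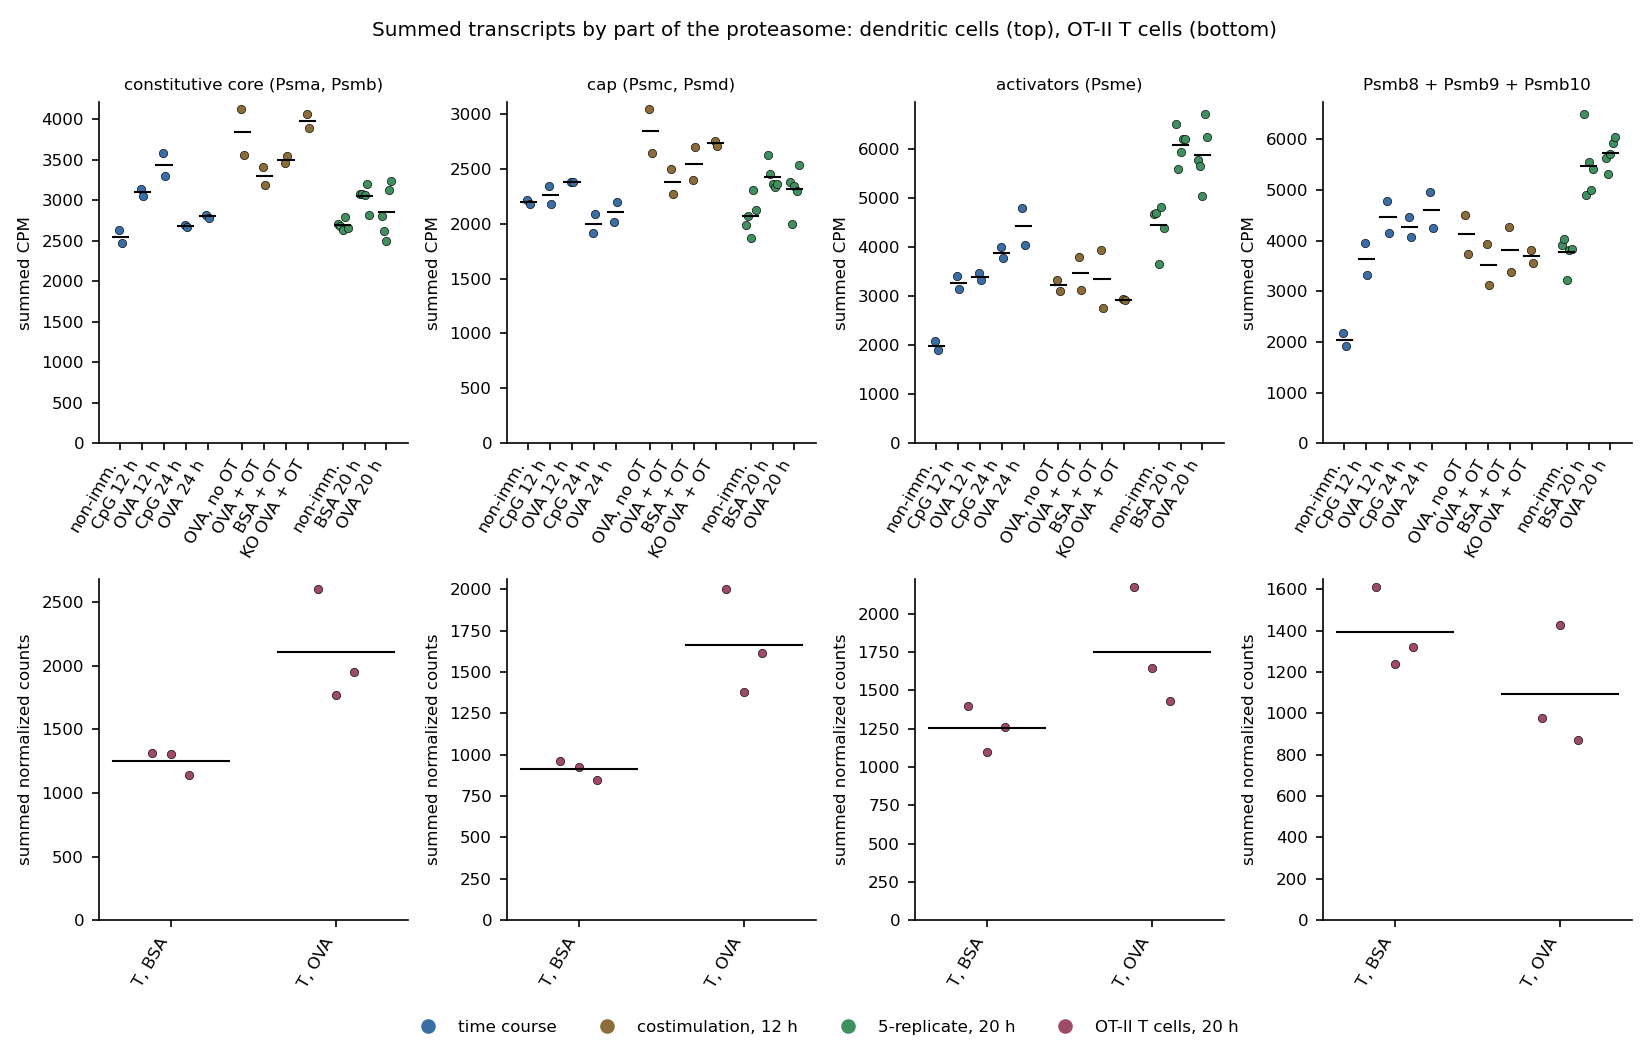
Summed levels of the core, the cap, the activators and Psmb8, Psmb9 and Psmb10, 1 point per library with bars at the group mean, in CPM for DC (top, axes from 0) and in normalized counts for OT-II T cells (bottom). In the time course the activators and Psmb8 to Psmb10 lie apart from the non-immunized libraries at both times; in T cells core and cap lie higher after OVA, while Psmb8 to Psmb10 overlap.

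Of the cap, few genes passed. At 12 h 18 of 20 cap genes had a log2 fold change above 0 under either particle. Their medians were 0.31 after CpG and 0.34 after OVA and CpG, beside -0.02 and -0.03 over all genes tested. With library totals 13 and 14 of 20 were above 0. Psmd14, the subunit that removes ubiquitin chains, rose 12 h after CpG (98.7 and 105 CPM in non-immunized DC, 132 and 137 CPM after CpG; log2 fold change 0.62). Psmd1, a scaffold of the cap base, rose 12 h after OVA and CpG (0.66). The cap chaperone Psmd10 rose 12 h after CpG (0.92) and 24 h after OVA and CpG (0.85). Psmd5, another cap chaperone, fell by 1.29 on the log2 scale 12 h after CpG (SE 0.37, adjusted p = 0.0253, edgeR): it stood at 31.8 and 37.7 CPM in non-immunized DC, at 13.5 and 10.4 CPM 12 h after CpG and at 29.4 and 34.6 CPM 24 h after CpG. It rose between 12 h and 24 h after CpG (log2 fold change 1.39, SE 0.38, adjusted p = 0.0337), and 12 h after OVA and CpG it stood at 31.7 and 20.4 CPM. DESeq2 called Psmd5 in neither of these comparisons, and the fall 12 h after CpG was not called without any 1 of the 4 libraries. DESeq2 called 0 cap genes in these 4 comparisons with non-immunized DC, and the rises of Psmd14, Psmd1 and Psmd10 were not called with library totals or with any 1 library left out.

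Psmg4, a chaperone that helps to assemble the alpha ring, stood at 83.2 and 78.1 CPM in non-immunized DC, 180.3 and 164 CPM 12 h after CpG, 109.9 and 105 CPM 12 h after OVA and CpG, 132 and 145 CPM 24 h after CpG and 183 and 167 CPM 24 h after OVA and CpG. It rose in all 4 comparisons, with log2 fold changes of 1.31, 0.64, 0.99 and 1.33 in that order (SE 0.19 to 0.20, adjusted p 0.000191, 0.0407, 0.00297 and 0.000148). After OVA and CpG it rose further from 12 h to 24 h (log2 fold change 0.69, SE 0.19, adjusted p = 0.0346), a call lost with any 1 of the 4 libraries left out. Its partner Psmg3 had log2 fold changes from -0.05 to 0.18, Psmg1 from -0.53 to 0.29 and Psmg2 from -0.79 to -0.57, and the inhibitor Psmf1 from -0.16 to 0.49, none past the threshold. Of the core chaperones Psmg4 alone passed in these 4 comparisons. DESeq2, the fit without a filter, library totals and all 4 fits with 1 library left out did not call it 12 h after OVA and CpG, and 24 h after CpG the call was lost without non-immunized replicate 2.

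**Figure D3:**
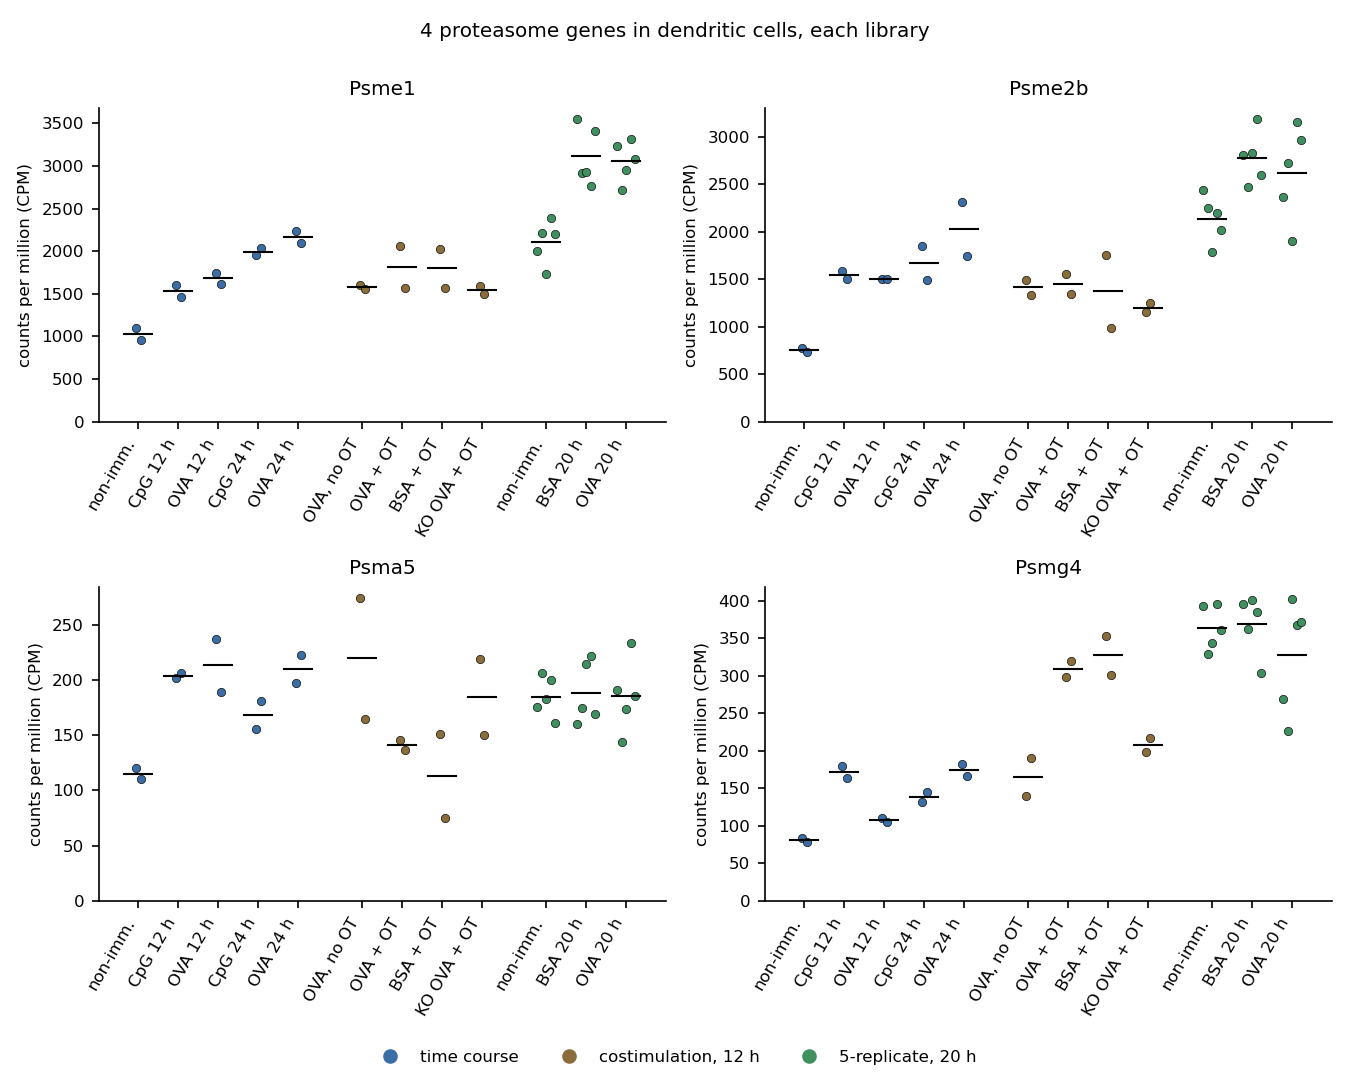
CPM of Psme1, Psme2b, Psma5 and Psmg4 in each DC library (points) with bars at the group mean; vertical axes start at 0. Immunized libraries of the time course lie above the non-immunized ones for all 4 genes, while at 20 h Psma5 and Psmg4 overlap between the groups and Psme1 does not.

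These counts rest on 2 libraries a group. Leaving out 1 library at a time left 3 to 5 called members for CpG at 12 h and 4 to 6 for OVA at 12 h, whichever library was left out. It left 4 to 5 for OVA at 24 h, with 4 where either non-immunized library or OVA replicate 1 was out, and 2 to 5 for CpG at 24 h, with 2 where non-immunized replicate 2 was out. Psme2b was called in all of these settings and Psme1 in all but 1, CpG at 12 h without non-immunized replicate 2. Transcripts of other cells moved with immunization too. The 5 neutrophil markers (S100a8, S100a9, Camp, Ltf and Ngp) summed to 99.7 to 154 CPM in non-immunized libraries, 12540 to 16306 CPM 12 h after CpG, 1990 to 1991 CPM 12 h after OVA and CpG, 64.7 to 582 CPM 24 h after CpG and 350.5 to 2334 CPM 24 h after OVA and CpG, and all 5 rose in 3 of the comparisons. The 5 DC markers summed to 1651 to 2725 CPM in non-immunized libraries and to 2505 to 8248 CPM in immunized ones. Of the 4 tested, 3, 2, 0 and 2 rose (CpG 12 h, CpG 24 h, OVA 12 h, OVA 24 h). The 4 markers of migratory DC summed to 336 to 493 CPM and to 537 to 3473 CPM after immunization, and 5 T cell markers to 1900.03 to 1933 CPM and 609 to 1275 CPM. The 5 B cell markers summed to 219.95 to 222 CPM in non-immunized libraries and to 316 to 1901 CPM in immunized ones, and 4, 5, 4 and 1 of them rose (CpG 12 h, CpG 24 h, OVA 12 h, OVA 24 h). The 6 monocyte markers summed to 1728 to 1809 CPM in non-immunized libraries and 1480 to 1925 CPM at 12 h. At 24 h they summed to 1114 to 1156 CPM after CpG and 800 to 830 CPM after OVA and CpG, where 1 rose and 3 fell under each particle. The part of these cells in the members' changes was not tested, and in bulk libraries a change in the share of a cell type and a change of RNA per cell cannot be told apart.

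No member passed between the particles with and without antigen. Between OVA and CpG particles and CpG particles 0 members were called at 12 h, beside 2.46% of all genes, and 0 at 24 h, beside 0% of all genes, by edgeR. Members at an unadjusted p under 0.05 numbered 4 and 1, and DESeq2 called 0 and 0. The smallest p-values at 12 h belonged to Psmg4 (log2 difference -0.67, adjusted p = 0.094, edgeR), Psmd5 and Psmd12, and at 24 h to Psma3, Psmd3 and Psmg4. The difference between the 24 h and the 12 h antigen effect was called for 0 members, beside 3.38% of all genes, and 3 members had an unadjusted p under 0.05, with 0 by DESeq2. Psmg4 was nearest here as well, with a log2 difference of 1.01 (adjusted p = 0.0526, edgeR), and it was called with library totals in place of TMM.

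From 12 h to 24 h 0 of 14 core genes fell after CpG and 1, Psmb3, after OVA and CpG. After CpG all 14 tested core genes had a log2 difference below 0 (median -0.28; 13 of 14 with library totals), 1 of the 44 members, Psmd5, rose and 0 fell, beside 3.36% and 4.26% of all genes. After OVA and CpG 12 of 14 core genes were below 0 (median -0.38), Psmg4 rose, and Psmb3 fell by 1.06 on the log2 scale (SE 0.25, adjusted p = 0.0119, edgeR), beside 5.03% and 3.84% of all genes. Psmb3, a structural beta subunit, stood at 158 and 132 CPM at 12 h and at 76.7 and 64.0 CPM at 24 h, without overlap, and at 127 and 96.1 CPM in non-immunized DC. DESeq2 called Psmb3 and not Psmg4, Psmb3 was called in 2 of 4 fits with 1 library left out (not without OVA 12 h replicate 1 or OVA 24 h replicate 2), and without a filter on low counts 0 rose and 4 fell (Psmb3, Psmb4, Psmb5 and Psmd1). Calls after CpG were 0 to 4 with 1 library left out, with 4 (Psmd5, Psma3, Psmb3 and Psmb5) where CpG 24 h replicate 1 was out, and 0 to 1 after OVA and CpG.

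In the costimulation experiment no member passed in any comparison. With against without OT cells, both after OVA, 0 of 44 members were called beside 2.6% of all genes, OVA against BSA with OT cells gave 0 beside 0.0107%, and Cd80/86 -/- against wild type gave 0 beside 0% of all genes, by edgeR. At an unadjusted p under 0.05 there were 1, 1 and 2 members, and DESeq2 called 0 in each. Psmg4 was the member with the smallest p in the first and the last: it stood at 139 and 190.5 CPM without OT cells, at 299 and 319 CPM with OT cells, at 353 and 301 CPM after BSA with OT cells and at 198 and 216 CPM in Cd80/86 -/- DC with OT cells. The wild-type libraries with OT cells did not overlap with either the libraries without OT cells or those of the knockout. Psmg4 was picked here by its p, and with 2 libraries a group such a separation adds no support to it.

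The log2 difference of Psmg4 was 0.98 with against without OT cells (95% interval 0.38 to 1.58, adjusted p = 0.0872, edgeR) and -0.64 in the knockout against wild type (adjusted p = 0.41). Between OVA and BSA with OT cells the difference of Psmg4 was -0.01 (95% interval -0.60 to 0.59), and the member with the smallest p was Psme4, at 66.3 and 77.6 CPM after OVA and 31.8 and 40.1 CPM after BSA (log2 difference 1.07, adjusted p = 0.456). The members' medians were -0.16 with against without OT cells and 0.16 in the knockout against wild type, beside -0.03 and -0.00 over all genes tested. The former was -0.01 without replicate 1 and -0.29 without replicate 2 of the group without OT cells, and the latter was 0.07 without replicate 1 of the wild type with OT cells. NK cell markers summed to 179 to 483 CPM without OT cells and 2.50 to 10.7 CPM with them, and migratory DC markers to 1011 to 2063 CPM and 4765 to 5431 CPM. T cell markers summed to 202 to 419 CPM without OT cells and 7.51 to 23.6 CPM with them, and 2 of 5 fell. B cell markers summed to 79.5 to 109 CPM and 17.5 to 22.1 CPM, and neutrophil markers to 3483 to 18392 CPM and 5498 to 5511 CPM. The 5 DC markers summed to 3308 to 5426 CPM without OT cells and 7439 to 8214 CPM with them, and 0 of the 5 were called. The part of these cells was not tested.

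At 20 h the activators Psme1 and Psme2b rose after either particle, beside a few core and cap genes. After BSA and CpG 7 members rose and 0 fell against non-immunized DC, beside 3.62% and 1.77% of all genes, and after OVA and CpG 11 rose and 2 fell, beside 9.56% and 6.04%. Medians were 0.23 and 0.23 (0.09 and 0.08 with library totals), beside -0.01 and -0.01 over all genes. DESeq2 called 10 and 14 members, beside 619 and 1483 among all genes. Both comparisons share the 5 non-immunized libraries.

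Psme1 ranged from 1729 to 2387 CPM in non-immunized DC (median 2198), from 2769 to 3553 CPM after BSA (median 2928) and from 2717 to 3310 CPM after OVA (median 3075). Every immunized library was above every non-immunized one, and the log2 fold change was 0.71 (SE 0.13, adjusted p = 0.00315) after BSA and 0.69 (SE 0.13, adjusted p = 0.000886) after OVA, by edgeR. Psme2b ranged from 1786 to 2442 CPM in non-immunized DC, from 2468 to 3185 CPM after BSA and from 1901 to 3159.5 CPM after OVA, with overlap in the last, and rose after both (0.52 and 0.45, SE 0.15 each). Its calls were lost for both with no filter, with library totals and with the term for Y-linked transcripts, and held in 1 of 10 fits with 1 library left out for each. Psme3, at 43.6 to 68.4 CPM in non-immunized DC and 56.7 to 96.9 CPM after OVA, rose after OVA (0.51, SE 0.16), with groups that overlap, and its log2 fold change after BSA was 0.21. The call of Psme3 after OVA held in 4 of 10 fits with 1 library left out. Psme2 and Psme4 did not pass in either comparison.

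In the core Psma7 rose after BSA (365 to 501 CPM in non-immunized DC, 527 to 727 CPM after BSA; log2 fold change 0.62, SE 0.15) and after OVA (470 to 746 CPM; 0.62, SE 0.15), with 1 overlapping library in the latter. Psmb4 rose after both (0.48 and 0.42) and Psmb6 after OVA (0.49). With 1 library left out Psma7 was called in 6 of 10 fits after BSA and in 10 of 10 after OVA. Psmb4 was called in 0 and 2 of 10 such fits, and Psmb6 in 1 of 10 after OVA. Psma3 ranged from 38.5 to 62.4 CPM in non-immunized DC and from 19.0 to 31.4 CPM after OVA, without overlap, and fell by 0.75 on the log2 scale (SE 0.20, adjusted p = 0.0154, edgeR). After BSA it ranged from 22.4 to 44.1 CPM, and the log2 fold change there and that of OVA against BSA (-0.54) did not pass. Psma5, which rose at 12 h and 24 h in the time course, ranged from 161 to 206 CPM in non-immunized DC and from 144 to 234 CPM after immunization at 20 h and did not pass.

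In the cap Psmc2, an ATPase, and Psmd14 rose after both particles, with log2 fold changes of 0.53 and 0.45 after BSA and 0.50 and 0.52 after OVA. Psmd4, a ubiquitin receptor, rose after BSA (0.46), and Psmc1 (0.65), Psmd8 (0.47) and Psmd7 (0.51) rose after OVA. All 20 cap genes had a log2 fold change above 0 after BSA and 17 of 20 after OVA. With library totals these were 19 and 13, and no cap gene was called. With 1 library left out Psmd14 was called in 0 of 10 fits after BSA and in 10 of 10 after OVA, and Psmc2 in 1 and 5. Psmd4 was called in 2 of 10 such fits after BSA, and Psmc1, Psmd8 and Psmd7 in 4, 5 and 1 after OVA.

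The core chaperone Psmg1 fell by 1.23 on the log2 scale after OVA (SE 0.29, adjusted p = 0.00574, edgeR). It ranged from 8.37 to 24.5 CPM in non-immunized DC and from 5.45 to 7.79 CPM after OVA, without overlap, and after BSA from 6.05 to 11.02 CPM, where the change did not pass (log2 fold change -0.93, adjusted p = 0.0541). Psmg4 ranged from 329 to 395 CPM in non-immunized DC, 303 to 400.4 CPM after BSA and 227 to 402 CPM after OVA, groups that overlap. Its log2 fold changes were 0.16 (95% interval -0.15 to 0.47) and -0.00 (95% interval -0.32 to 0.31). Psmg2, Psmg3 and Psmf1 did not pass.

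Between OVA and BSA at 20 h 0 members were called, beside 0% of all genes, by edgeR, 1 had an unadjusted p under 0.05, and DESeq2 called 0. The smallest p-values were those of Psma3, Psme3 and Psmg2. Groups did not overlap for 4 members that were higher after BSA and for 2 higher and 2 lower after OVA than in non-immunized DC, where 2.13% and 3.84% of all genes were wholly higher and 5.48% and 8.14% wholly lower.

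Counts at 20 h depended on the libraries and the scaling. Left out singly, libraries gave 1 to 4 calls for BSA, below 5 whichever was left out, and 5 to 13 for OVA, with 5 or 6 where non-immunized replicate 1 or 2 or OVA replicate 1 or 5 was out, and 7 and 8 without non-immunized replicate 3 and OVA replicate 3. With library totals 1 rose and 1 fell after BSA, and 2 rose and 3 fell after OVA. Transcripts linked to the Y chromosome exceeded 20 CPM in 3 of 5 non-immunized, 2 of 5 OVA and 0 of 5 BSA libraries, and a fit with a term for them, added after seeing the data, called 1 member after BSA (Psme1) and 10 after OVA. Psme1 was called under every alternative run for these 2 comparisons. Monocyte markers summed to 455 to 1242 CPM in non-immunized libraries and 61.4 to 220.05 CPM in immunized ones, and migratory DC markers to 5712 to 10460 CPM and 8357 to 17714 CPM. The 5 DC markers summed to 12758.5 to 21887 CPM and 8472 to 17705 CPM, and plasmacytoid DC markers to 142 to 234 CPM and 240 to 778 CPM. Of the 5 DC markers 1 fell after each particle. The part of these cells was not tested.

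At 20 h 2 libraries stood apart for several members, OVA replicate 3, the deepest, and BSA replicate 1; they were picked after member values were seen. In OVA replicate 3 Psma4 was 16.1 CPM, where the other OVA libraries held 30.6 to 76.3 CPM, and Psmc6 was 20.0 CPM, where they held 82.4 to 112 CPM. Psmd2 was 125 CPM there, against 67.0 to 80.9 CPM, and Psmd7 was 157 CPM. BSA replicate 1 had Psma4 at 29.1 CPM and Psme4 at 20.8 CPM, low as in OVA replicate 3, and Psmd2 at 104 CPM, high as there. Without both libraries 2 members were called after BSA, Psme1 and Psme2b, and 11 after OVA, 10 of which were among the 13.

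**Figure D4:**
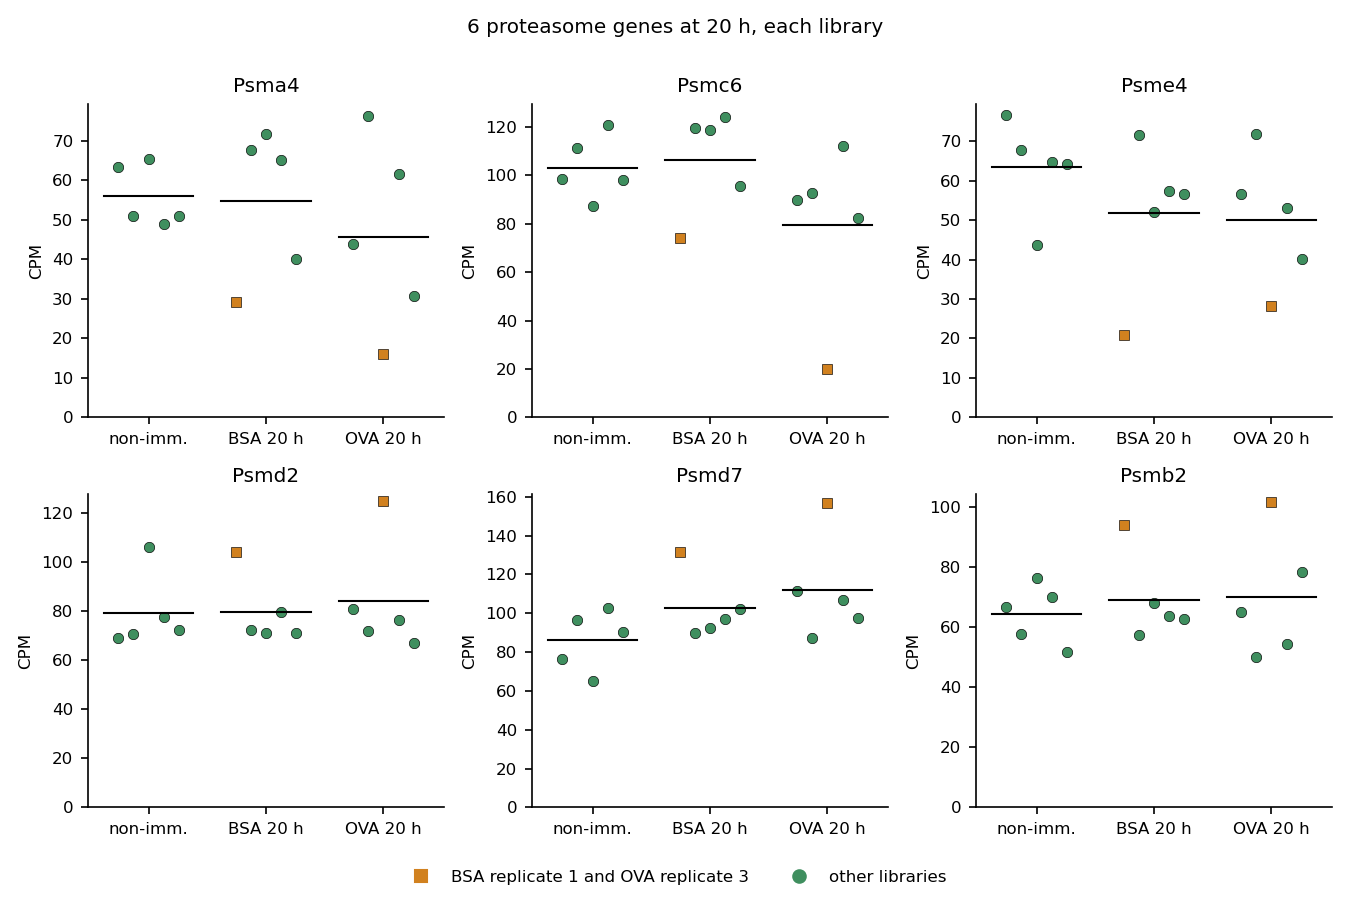
CPM of 6 members in each library of the DC experiment at 20 h, with bars at the group mean, axes from 0, and BSA replicate 1 and OVA replicate 3 drawn as orange squares. The squares lie lowest of their groups for Psma4, Psmc6 and Psme4 and highest for Psmd2, Psmd7 and Psmb2; the genes were chosen to show these libraries.

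In OT-II T cells core, cap and core chaperone genes stood higher after OVA, the antigen that their receptor recognizes, than after BSA. Of 45 members tested 24 rose and 0 fell, beside 10.8% and 5.04% of all 6452 genes tested, and 43 had a log2 fold change above 0. The members' median was 0.98, beside 0.04 over all genes. All 3 OVA libraries were above all 3 BSA libraries for 35 of the 45 members, beside 21.5% of all genes, and below them for 0, beside 15.4%. The rise covered 7 of 14 core genes (median 0.88), 11 of 20 cap genes (median 1.07), 2 of 5 activators (median 0.48) and all 4 core chaperones (median 1.18).

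Among core genes Psma5 stood at 205, 134 and 139.6 normalized counts after OVA and at 62.3, 68.8 and 62.2 after BSA, a log2 fold change of 1.27 (SE 0.22, adjusted p = 0.0057, limma). The catalytic subunit Psmb7 stood at 129, 106 and 117 normalized counts after OVA and at 72.7, 42.4 and 46.9 after BSA (log2 fold change 1.14, SE 0.25, adjusted p = 0.0116, limma), and Psmb6 rose by 0.82 (SE 0.22). For Psma5, Psmb6 and Psmb7 the groups did not overlap. Psmb5 had a log2 fold change of 0.75 (adjusted p = 0.126, limma) with 1 OVA library among the BSA libraries, and did not pass. Psma6 (1.14), Psma7 (0.95) and Psmb2 (1.13) were the others with the smallest adjusted p. With 1 library left out Psma5 and Psmb7 were called in all 6 fits, Psma6 and Psma7 in 5, Psmb2 in 4 and Psmb6 in 1.

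Both layers of the cap had members that rose. Of the 6 ATPases Psmc1 (1.06), Psmc4 (1.21), Psmc5 (1.08) and Psmc6 (1.11) rose, and of the 11 other subunits Psmd1 (1.23), Psmd2 (1.16), Psmd3 (1.22), Psmd6 (1.09), Psmd7 (1.18), Psmd11 (1.25) and Psmd12 (1.20) rose, all on the log2 scale. Psmd1 stood at 104, 84.7 and 104 normalized counts after OVA and at 48.9, 31.8 and 43.8 after BSA, so that every OVA library was above every BSA library. Psmd14 stood at 89.2, 65.2 and 87.4 after OVA and at 65.3, 63.6 and 26.5 after BSA, which overlap, and did not pass. The 3 cap chaperones, Psmd5, Psmd9 and Psmd10, had log2 fold changes above 0 and did not pass. With 1 library left out Psmc1, Psmc6, Psmd1, Psmd3 and Psmd12 were called in all 6 fits and Psmd2 in 4. Psmc5, Psmd6, Psmd7 and Psmd11 were called in 3 of 6 and Psmc4 in 2.

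Among the activators Psme3, an activator of the nucleus, stood at 212, 84.0 and 124 normalized counts after OVA and at 40.0, 39.7 and 45.9 after BSA, without overlap, a log2 fold change of 1.62 (SE 0.30, adjusted p = 0.00635, limma). Psme1 stood at 999, 849 and 668 after OVA and at 791, 569 and 619.5 after BSA, with a log2 fold change of 0.34 (95% interval -0.06 to 0.74) that did not pass. Psme2 rose (1.08, SE 0.33), a call lost by edgeR and DESeq2 on recovered reads and with any 1 library left out. Psme2b had a log2 fold change of 0.48 that did not pass, and the division of reads between these genes is uncertain here too. No test sets the T cell change of a gene against its DC change, since the tables were normalized separately.

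The core chaperones Psmg1 (1.72, SE 0.42), Psmg2 (0.91, SE 0.28), Psmg3 (1.45, SE 0.34) and Psmg4 (0.64, SE 0.20) rose. DESeq2 on recovered reads called Psmg1 and Psmg3, edgeR on recovered reads did not call Psmg4, and with 1 library left out Psmg2 and Psmg4 were each called in 1 of 6 fits and Psmg1 and Psmg3 in 4 of 6. Psmg1 stood at 95.5, 39.0 and 49.4 normalized counts after OVA and at 20.8, 26.5 and 8.15 after BSA, and Psmg4 at 149, 122 and 124 after OVA and at 89.0, 79.4 and 83.6 after BSA, both without overlap. The inhibitor Psmf1, at 35.7, 28.2 and 41.1 after OVA and 48.9, 39.7 and 21.4 after BSA, had a log2 fold change of -0.00 (95% interval -0.70 to 0.69). Psme4 had -0.20. Psmc3ip stood at 15.7, 7.39 and 12.4 after OVA and was listed at 0, 5.30 and 18.3 after BSA, and did not pass.

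**Figure D5:**
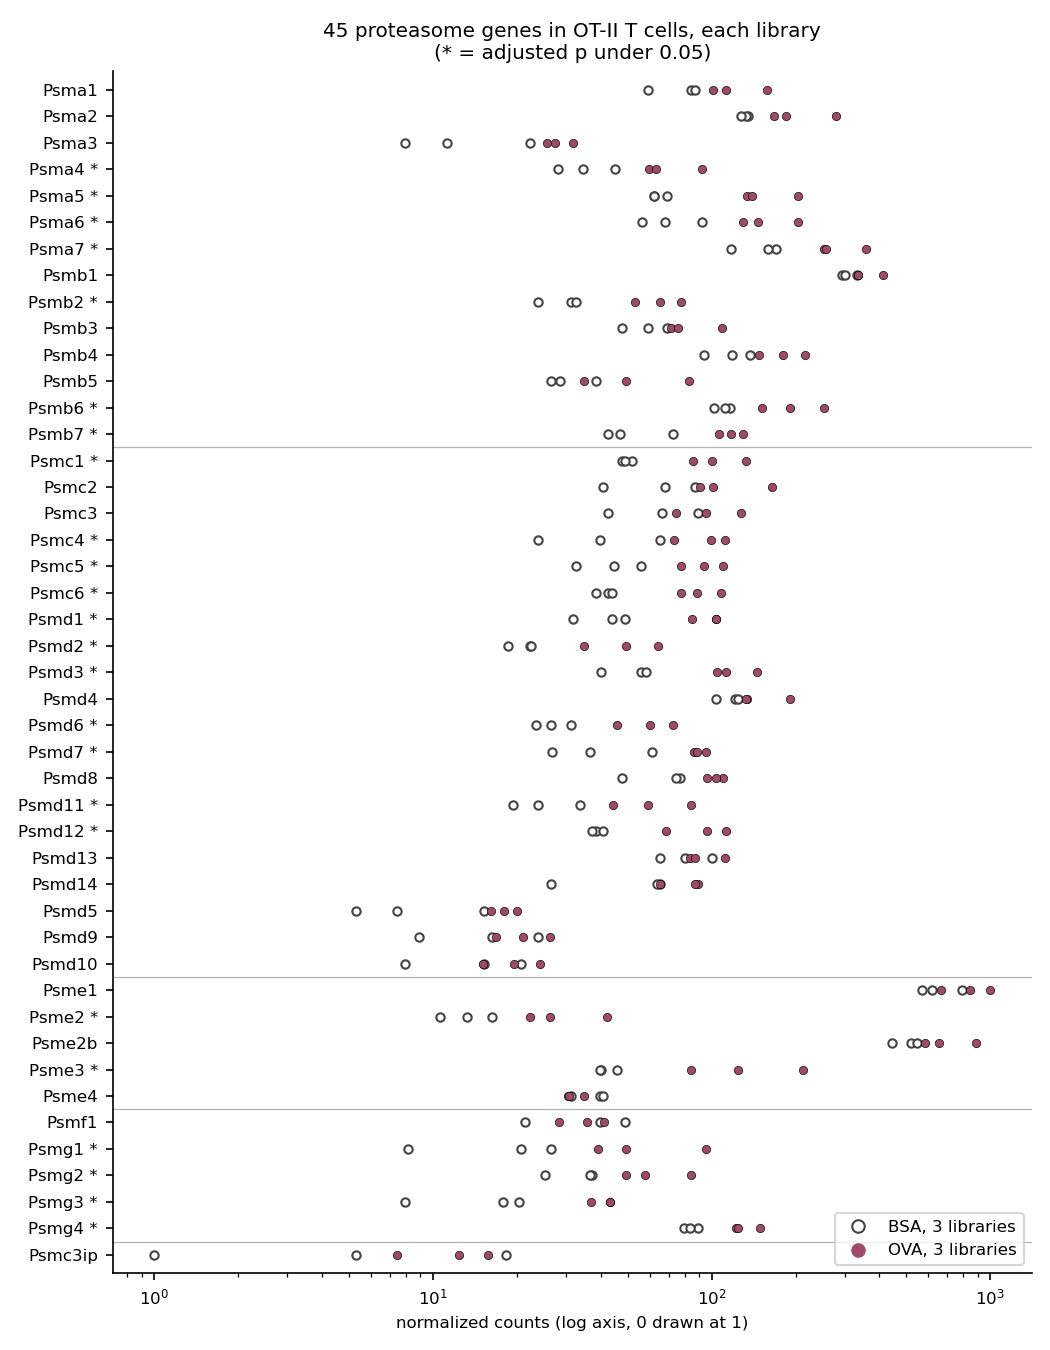
Normalized counts of the 45 members in each OT-II T cell library on a log axis, open circles for BSA and filled circles for OVA, with an asterisk after genes at an adjusted p under 0.05; a value of 0 is drawn at 1. Filled circles lie to the right of open ones for 35 members, while those of Psmf1, Psme4 and Psmd10, for example, are mixed.

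The T cell libraries were not equal in other ways. OVA replicate 1 had the highest level of 40 of the 45 members. Without it 11 members were called, without OVA replicate 3 also 11 and without BSA replicate 3 12, whereas without OVA replicate 2 there were 28. The B cell markers summed to 49.3, 581 and 279 normalized counts in OVA replicates 1 to 3 and to 601, 349.5 and 492 in BSA replicates 1 to 3, and the DC markers Flt3, H2-Ab1 and Cd74 to 266, 1814 and 1069.6 after OVA and to 2023, 1552 and 1680.3 after BSA. Both were lowest in OVA replicate 1. The 5 T cell markers in the table summed to 684 to 759 after OVA and 973 to 1075 after BSA. Recovered reads were 423594, 614630 and 1316341 after OVA and 271134, 155088 and 402391 after BSA, all OVA libraries being deeper. The part of other cells and of depth in the members' change was not tested. An edgeR test on the recovered reads, added because the table holds normalized values, called 22 members and DESeq2 called 21.

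The genes around the proteasome were taken from lists of 3 immunoproteasome subunits, 14 assembly and docking factors, 18 transcription and shuttle factors and 15 ubiquitin genes. In DC Psmb8, Psmb9 and Psmb10 rose in all 6 comparisons with non-immunized mice, by 0.94 to 1.63 on the log2 scale in the time course and 0.57 to 0.80 at 20 h. In T cells 0 of the 3 were called: the log2 fold changes after OVA against BSA were -0.22, -0.54 and -0.56 (adjusted p = 0.424, 0.16 and 0.112, limma), with groups that overlap. Psmb8 stood at 601, 754 and 494 normalized counts after OVA and at 819, 654 and 662 after BSA. OVA replicate 2, which held the most B cell and DC marker transcripts of the OVA libraries, was the highest of them for Psmb8. The part of other cells in these levels was not tested.

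Pomp, the maturation factor that closes core assembly, rose in T cells (229.9, 188 and 216 normalized counts after OVA, 123, 109 and 105 after BSA; log2 fold change 0.90, SE 0.19) and in DC 12 h after CpG (0.64) and 12 h after OVA and CpG (0.84). Of 10 assembly and docking factors tested in T cells, where 10.8% of all genes rose, 3 rose and 0 fell, Pomp, the cap-bound deubiquitinase Uchl5 (1.56) and Txnl1 (0.95). In DC 2 of 11 rose 12 h after CpG and 12 h after OVA and CpG, beside 11.6% and 9.56% of all genes, Pomp and the cap subunit gene Shfm1 (0.62 and 0.83), 0 at 24 h, 0 at 20 h after BSA and 1 after OVA, Akirin2 (0.63). Of all genes 7.96% and 10.2% rose at 24 h after CpG and after OVA and CpG. At 20 h 3.62% and 9.56% rose after BSA and after OVA.

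Nfe2l1, a transcription factor of proteasome genes, rose 12 h and 24 h after CpG (1.03 and 1.04) and 24 h after OVA and CpG (1.44). It stood at 65.2 and 47.6 CPM in non-immunized DC, at 64.3 and 49.1 CPM 12 h after OVA and CpG, which overlap, and at 150 and 115 CPM 24 h after it. Of the 17 transcription and shuttle factors tested in the time course, 1 rose in each of the CpG comparisons, 0 12 h and 2 24 h after OVA and CpG, the other being Nfya (1.54), and 0 fell. Of all genes 11.6% and 7.96% rose at 12 h and 24 h after CpG, and 9.56% and 10.2% after OVA and CpG. In T cells 2 of 16 rose, Nploc4 (1.28) and Nsfl1c (1.30), partners of the unfolding enzyme Vcp, a share near the 10.8% of all genes. At 20 h 0 of 17 rose after BSA and 2 of 17 after OVA, Nsfl1c (0.52) among them, beside 3.62% and 9.56% of all genes.

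Of 14 ubiquitin genes tested in DC 3 rose 12 h and 2 rose 24 h after CpG, 6 and 3 after OVA and CpG, 3 at 20 h after BSA and 5 after OVA, and 0 fell in any of these. The shares of all genes that rose were, in that order, 11.6%, 7.96%, 9.56%, 10.2%, 3.62% and 9.56%. Ube2l6, which conjugates the interferon-induced modifier Isg15, had the highest of these changes in the time course, with log2 fold changes of 3.37 and 4.03 after CpG and 3.62 and 4.54 after OVA and CpG, from 17.1 CPM on average in non-immunized DC. The ubiquitin gene Ubb rose at 20 h after both particles (0.55 after BSA, 0.57 after OVA). In T cells 1 of 13 rose, Ube2k (0.82), beside 10.8% of all genes.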

How the data were processed

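Sorted lymph node DC and OT-II T cells were profiled by RNA sequencing of captured polyadenylated RNA. Bcl2fastq, HISAT 0.1.6, HOMER and build mm9 are named, per the submitters' processing notes. The authors deposited raw counts per gene for DC. For T cells the deposited values behave as counts divided by a size factor for each library, a normalized signal. The authors' deposited log2 fold changes and p-values are not printed here. Of the deposited library columns, 4 match no sample here and were not used.

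DC counts were tested with edgeR 4.0.16 (quasi-likelihood, TMM, filterByExpr, all libraries of an experiment in 1 fit). T cells were tested with limma 3.58.1 on log2 values with a pseudocount of 1, keeping genes that reached 10 normalized counts in 3 libraries or more. An edgeR test had been planned for T cells, but the values were not raw counts. Whole reads were recovered for 100% of T cell values, within 0.01 reads. Benjamini-Hochberg adjustment ran over all genes tested, and SE is the log2 fold change over the root of F for edgeR. The fits were also run on simulated counts with the same spread set for all genes and no outlying libraries or shifts of cell types. Such a run does not show how stable the calls here are. Alternatives were DESeq2 1.42.0 and its size factors, no filter, pseudocounts, a replicate block and each library left out; library totals, a term for Y-linked transcripts and pairs of libraries left out were added after seeing the data.

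Members and lists were chosen with earlier results of these data known. Named were the catalytic subunits, activators, Psmf1, Psmd14, Psmg1 to Psmg4 and the rare members in every case, then up to 20 called members per comparison by adjusted p or, with none called, the 3 with the smallest p; of related lists, called genes, at most 4. Psma5 at 20 h and the members shown for the libraries that stood apart were chosen after their values were seen. Some genes of the related lists are not reported here.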

Additional observations from a re-analysis of the deposited data

Results flagged for a closer look

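Of 130 sets of 5 libraries of the DC experiment at 20 h (1 gene in 1 group, mean of at least 10 CPM), 11 held a library far from the rest by Dixon's test, and chance flags about 1 in 20. In non-immunized DC, replicate 4 was highest for the ATPases Psmc3 (181 CPM, next 145 CPM) and Psmc4 (143 CPM, next 98.9 CPM). Replicate 3, the shallowest library, was lowest for Psmd1 (89.9 CPM, next 107 CPM) and Psmd9 (8.17 CPM, next 23.9 CPM) and highest for Psmd2 (106 CPM, next 77.5 CPM). Replicate 2 was highest for Psmd11 (67.7 CPM, next 50.4 CPM).

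After OVA and CpG, replicate 2 was lowest for Psmb3 (78.5 CPM, next 94.3 CPM), replicate 3 was highest for Psmd2 (125 CPM, next 80.9 CPM) and replicate 1 was lowest for Psmd11 (34.6 CPM, next 47.2 CPM). After BSA and CpG, replicate 1 was highest for Psmc2 (231 CPM, next 185 CPM) and Psmd2 (104 CPM, next 79.6 CPM). Psmd2 was thus far from the rest in 1 library of each of the 3 groups.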

How the results depend on the processing

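No member that was called changed direction under any alternative run, but counts of called members moved. DESeq2 called 5 (CpG, 12 h), 7 (OVA, 12 h), 4 (OVA, 24 h), 0 (24 h against 12 h after CpG) and 1 (after OVA). Without a filter the counts were 2 and 4 for 24 h against 12 h after CpG and OVA, 2 for BSA and 8 for OVA at 20 h. With library totals they were 6 (CpG, 12 h), 6 (OVA, 12 h), 4 (OVA, 24 h), 2 (BSA, 20 h), 5 (OVA, 20 h) and 1 for the change of the antigen effect. A term for Y-linked transcripts left 1 for BSA at 20 h, leaving out OVA 3 and BSA 1 left 2 for BSA, and leaving out non-immunized 3 and OVA 3 left 8 for OVA. Deviations of same-numbered libraries from their group means had correlations of -0.143 to 0.176. Of these, 2 of 20, 3 of 9, 4 of 15 and 0 of 3 exceeded 0.1 (time course, costimulation, DC at 20 h, T cells). In groups of 2 libraries the deviations mirror each other, so both replicates give the same correlation. With few libraries a group these values cannot tell whether the numbers pair them. With the replicate block the counts were 1 (Psmg4) with against without OT cells, 1 (Psmg4) for the change of the antigen effect, 4 for BSA at 20 h and 19 in T cells.

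With 1 library left out, the counts ranged from 3 to 5 and 2 to 5 (CpG, 12 h and 24 h), 4 to 6 and 4 to 5 (OVA, 12 h and 24 h), 0 to 4 and 0 to 1 (24 h against 12 h, CpG and OVA), 1 to 4 and 5 to 13 (BSA and OVA, 20 h) and 11 to 28 (T cells), and were 0 to 0 in the comparisons with no call. In the time course 2 libraries a group, and in T cells 3 with unequal depth, limit the precision.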
